A study of Mus musculus with 6 samples.

Results

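The clustered protocadherins are neuronal adhesion proteins encoded side by side on mouse chromosome 18 in an alpha, a beta and a gamma cluster. Rows of both deposited gene tables were taken as members by gene symbol, which gave 59 of 23235 genes, with 15 in the alpha, 22 in the beta and 22 in the gamma cluster. Every member was tested by the authors in both tables and measured at least 1 FPKM in control, so no member was lost to a filter. FPKM is a fragment count scaled by transcript length and by the number of mapped fragments, so levels can be set side by side between genes.

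The study asked whether the histone deacetylase HDAC2 and the zinc finger transcription factor Sp3 act together on a set of neuronal genes. Its 6 RNA sequencing libraries came from mixed cortical and hippocampal neurons of mouse embryos at day 15 (E15), kept in culture for 17 days. All 3 groups of 2 libraries received 1 uM AraC, which kills dividing cells, on day 5 in vitro and a lentivirus expressing short hairpin RNA (shRNA) on day 12. The groups were a control, a knockdown of HDAC2 and a knockdown of Sp3. The labels name neither the mouse strain, nor the sequence carried by the control virus, nor the number of hairpins, nor whether a group's libraries are separate cultures. The p-values may therefore measure technical spread. The deposited tables hold 1 FPKM per gene and group and no value per library, so no standard deviation can be given, overlap between libraries cannot be seen, and read depth is unknown.

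In the alpha and gamma clusters each isoform has its own promoter and its own large variable exon, which is spliced to constant exons shared by the whole cluster. A beta gene is a single exon with its own promoter and no constant exons. A neuron switches on a small and largely random set of these promoters, through contacts between promoters and distant enhancers that depend on CTCF and cohesin, while DNA methylation and histone H3K9 methylation keep the others silent. The C-type isoforms at the far end of the alpha and gamma clusters are expressed more evenly from cell to cell. The proteins pair with identical copies on a neighbouring membrane, which lets neurites of one neuron recognise and avoid each other, and gamma isoforms support neuronal survival.

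The targeted genes were lower in the groups named for them. Hdac2 went from 49.4 to 12.3 FPKM on its knockdown, and Sp3 went from 15.5 to 5.82 FPKM on its own. Sp3 was also higher in HDAC2 knockdown, at 26.7 FPKM, with a centred value of 0.47 ± 0.09 and an adjusted p of 3.48e-06. The level of Hdac2 after Sp3 knockdown was 38.8 FPKM, with q = 0.00598 in the authors' deposited table but a centred adjusted p of 0.101. Over tested genes with at least 1 FPKM the median log2 fold change was 0.32 in HDAC2 knockdown and -0.13 in Sp3 knockdown. Fold changes are therefore given as deposited and also relative to that median gene (centred), with the standard error implied by the authors' test statistic after the ± sign. Whether the shift of the median gene is scaling or a change of most genes cannot be told apart. Members had a median standard error of 0.27 for HDAC2 and 0.15 for Sp3, close to the 0.26 and 0.14 of all tested genes of at least 1 FPKM. A change of a given size was thus easier to call in Sp3 knockdown.

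Cell type markers moved as well. The summed level of 13 neuronal markers was 1134 FPKM in control, 1218 in HDAC2 knockdown and 1478 in Sp3 knockdown. Of 12 tested for HDAC2, the authors' deposited table had 0 higher and 1 lower (2 and 2 at an unadjusted p under 0.05), Slc17a6 (17.7 to 7.80 FPKM), a marker of glutamatergic neurons. When centred, 0 were higher and 2 lower (Slc17a6 and Gad2), beside 10.2% and 7.59% of all genes, and the marker median was -0.24. For Sp3 the authors' deposited table had 6 higher and 1 lower. Over all tested genes that table called 13.2% higher and 26.1% lower, and the one for HDAC2 called 24.6% higher and 3.60% lower. The 16 oligodendrocyte lineage markers summed to 228, 467 and 132 FPKM and the 12 astrocyte markers to 633, 1815 and 542 FPKM in the same order. By the authors' deposited table, 12 of 15 oligodendrocyte and 7 of 10 astrocyte markers that were tested were higher in HDAC2 knockdown. By the authors' deposited table for Sp3, 8 of 10 and 6 of 11 of them were lower, and 0 were higher. When centred for Sp3, 8 oligodendrocyte markers were lower and 0 higher, beside 17.6% and 20.2% of all genes. The astrocyte markers then split, with 6 lower and 3 higher (Aldh1l1, Aqp4 and Slc4a4). The 12 microglial markers summed to 6.61, 5.84 and 4.66 FPKM, with C1qc, Tmem119 and Tyrobp at 0 in every group, and the 12 endothelial, pericyte and fibroblast markers to 30.3, 44.9 and 53.7 FPKM. Glial cells also express some clustered protocadherins, and the part of these shifts in the results on the members was not tested. In bulk RNA fewer cells of a type and less RNA per cell cannot be told apart.

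Shared sequence limits how sharply isoforms can be separated. In GENCODE M21 transcripts, which were matched by symbol for 56 members, a median of 59.6% of the 50-base words of an alpha transcript also occurred in another member. The median was 45.1% in the gamma cluster and 4.26% in the beta cluster, whose genes lack constant exons. Words found in no other GENCODE gene made up 0.847% of Pcdha4, 1.02% of Pcdhga10 and 23.7% of Pcdhgc3, the 3 lowest shares of the members matched, so their levels and calls as separate isoforms rest on less sequence of their own in that annotation. Fragments from constant exons had to be divided among isoforms by the authors' software, so alpha and gamma values of single isoforms are less certain than beta values. The deposited tables give 1 locus for all members, chromosome 18, 37089938 to 38001526 in mm9, shared with Slc25a2 and Taf7. Isoform position was therefore taken as gene order in the RefSeq table for GRCm38.p6, which placed 58 members. The remaining member, Pcdha4-g, was not found by its symbol there and was given no place of its own. Pcdhgb8 is annotated as a pseudogene in RefSeq.

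In control neurons every member was listed at 1 FPKM or more. The members summed to 413 FPKM, of which the gamma cluster held 44.5%, the beta cluster 36.0% and the alpha cluster 19.5%. The median tested gene measured 9.79 FPKM. The median alpha member stood at the 28.1 percentile of tested genes, the median beta member at the 37.3 percentile and the median gamma member at the 38.4 percentile.

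Pcdhgc3, Pcdhac2 and Pcdhgc4, all C-type isoforms, were the most abundant members in control. Pcdhgc3, which promotes dendrite branching in cortical neurons, measured 32.4 FPKM in control, 82.9 in HDAC2 knockdown and 34.9 in Sp3 knockdown. Pcdhac2, an isoform known for the spacing of serotonergic axons, measured 25.6, 33.3 and 46.5 FPKM. Pcdhgc4, which is required for the survival of inhibitory neurons, measured 19.2, 30.4 and 20.7 FPKM. Pcdhgc5, which binds a subunit of GABA-A receptors, measured 12.7, 13.3 and 11.8 FPKM. Pcdhac1 was the lowest of all members in control, with 1.01, 1.34 and 1.59 FPKM. Each knockdown thus had its highest C-type value at a different isoform, Pcdhgc3 in HDAC2 knockdown and Pcdhac2 in Sp3 knockdown.

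The other isoforms differed less among themselves. In control the 19 A-type and B-type gamma isoforms spanned 3.06 FPKM (Pcdhgb7) to 9.34 FPKM (Pcdhga11). The 22 beta genes spanned 2.33 FPKM (Pcdhb1) to 17.9 FPKM (Pcdhb7), a ratio of 7.65, and Pcdhb17 with 11.1 FPKM was the second highest. The 12 numbered alpha isoforms spanned 1.40 FPKM (Pcdha1) to 5.90 FPKM (Pcdha3), followed by Pcdha6 with 5.71 and Pcdha5 with 5.64 FPKM. Pcdha4-g was listed at 6.65 FPKM. Gene order and control level had Spearman rho values of 0.18 over 12 alpha, 0.15 over 22 beta and -0.075 over 19 gamma isoforms without the C-type isoforms.

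**Figure D1:**
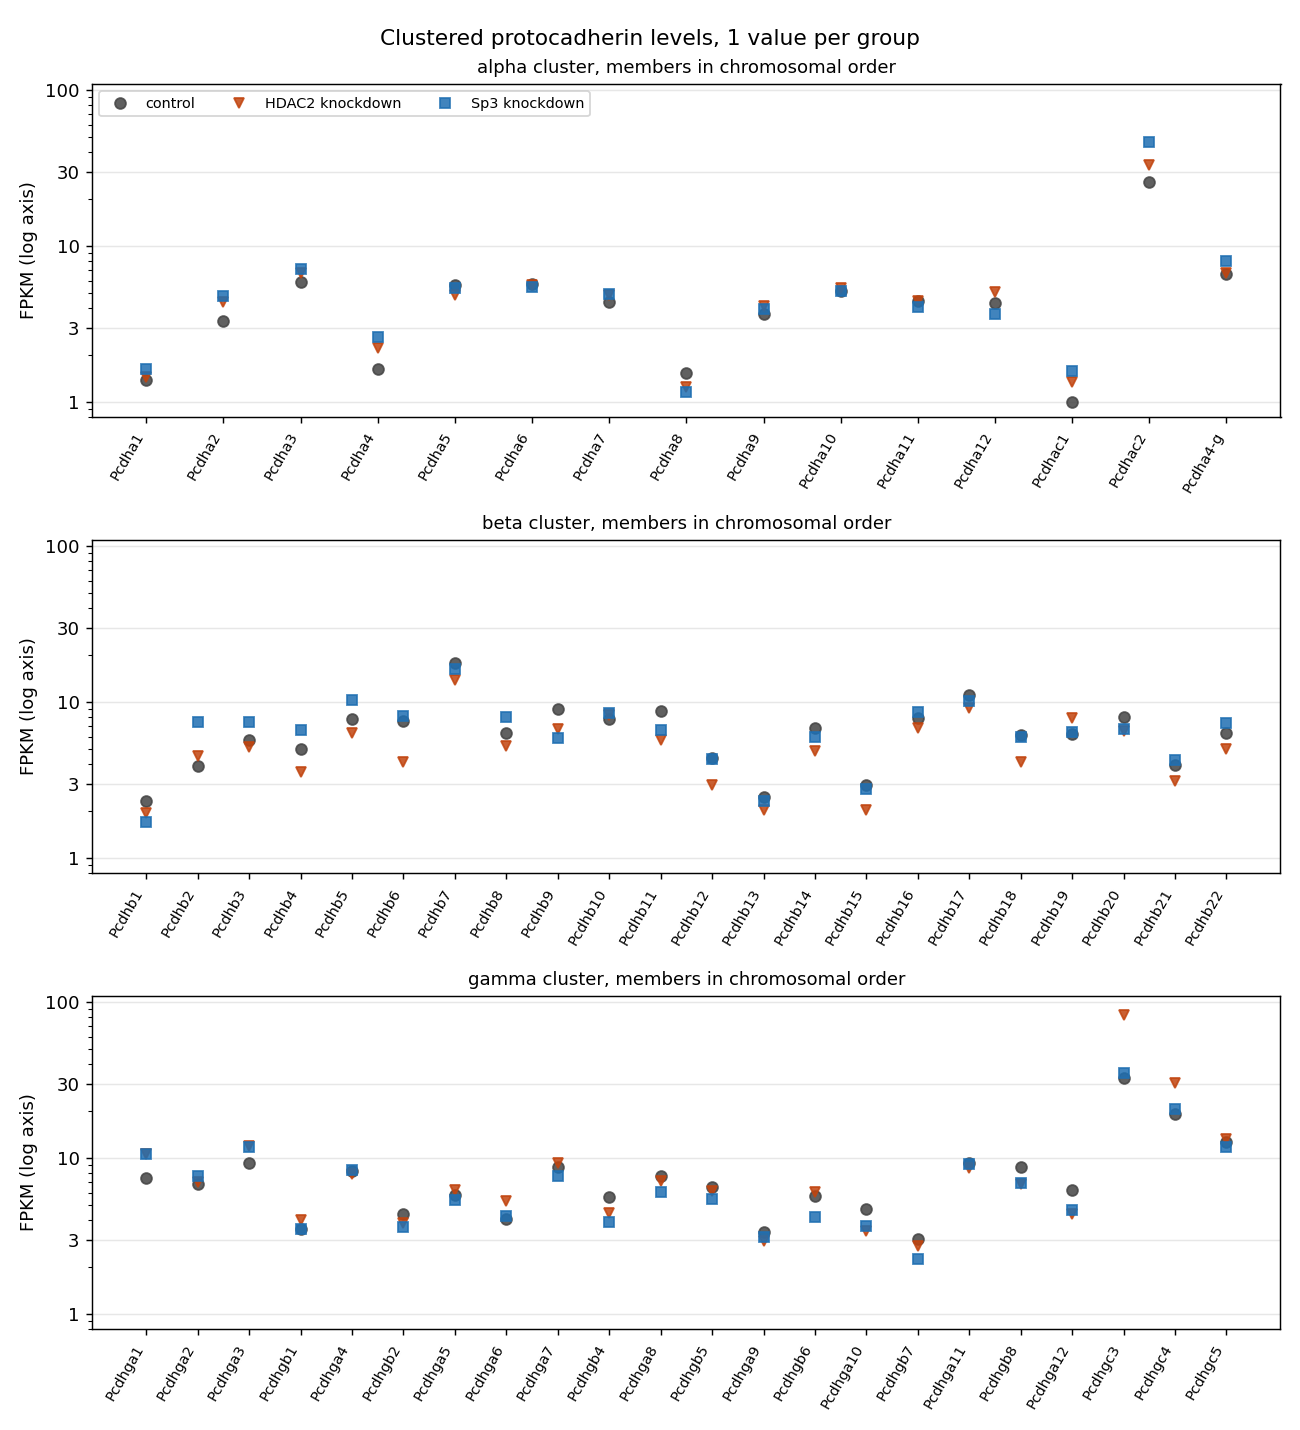
FPKM of every member (vertical log axis) in control (circles), HDAC2 knockdown (triangles) and Sp3 knockdown (squares), 1 value per group, with members in chromosomal order and Pcdha4-g last in its panel. Pcdhgc3 stands at 82.9 FPKM in HDAC2 knockdown and Pcdhac2 at 46.5 FPKM in Sp3 knockdown, above every other member of their clusters.

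The balance between clusters shifted in opposite ways for beta and gamma when HDAC2 was knocked down. The beta cluster summed to 149 FPKM in control, 120 in HDAC2 knockdown and 152 in Sp3 knockdown. The gamma cluster summed to 184, 246 and 180 FPKM, and the alpha cluster to 80.5, 91.9 and 106 FPKM. These sums are as deposited, where the median gene stood at 0.32 log2 in HDAC2 knockdown. Ratios relative to that gene are given in the last section. The beta share of all members was thus 36.0% in control, 26.3% in HDAC2 knockdown and 34.8% in Sp3 knockdown. Without the C-type isoforms the beta share was 46.1%, 40.5% and 47.2%, so the step in HDAC2 knockdown was smaller.

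Most of the rise of the deposited gamma and alpha sums came from a single C-type isoform, Pcdhgc3 in HDAC2 knockdown and Pcdhac2 in Sp3 knockdown. By contrast Pcdhgc5 went from 12.7 to 13.3 FPKM in HDAC2 knockdown, and Pcdhac1 from 1.01 to 1.59 in Sp3 knockdown. In HDAC2 knockdown the 3 gamma C-type isoforms went from 64.3 to 127 FPKM together, and the 19 others measured 120 FPKM in control and 119 in the knockdown. The log2 ratio of those 19 was -0.0071, below the 0.32 of the median gene. In Sp3 knockdown the 2 alpha C-type isoforms went from 26.6 to 48.1 FPKM together, while the 13 other alpha members measured 53.8 and 58.1 FPKM. Pcdhgc3 made up 17.6% of the gamma sum in control, 33.7% in HDAC2 knockdown and 19.4% in Sp3 knockdown. Pcdhac2 made up 31.8%, 36.2% and 43.8% of the alpha sum.

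The evenness of a cluster can be given as its effective number of isoforms, the number of equally abundant isoforms that would give the same sum of squared shares. For the gamma cluster it was 14.0 in control, 6.83 in HDAC2 knockdown and 12.5 in Sp3 knockdown. For the alpha cluster it was 7.06, 6.03 and 4.56. The beta cluster was the most even in each group, with 17.8, 17.7 and 18.5. These are values of 1 mixed culture sum per group and say nothing of how many isoforms a single cell used, and no test of them was possible.

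**Figure D2:**
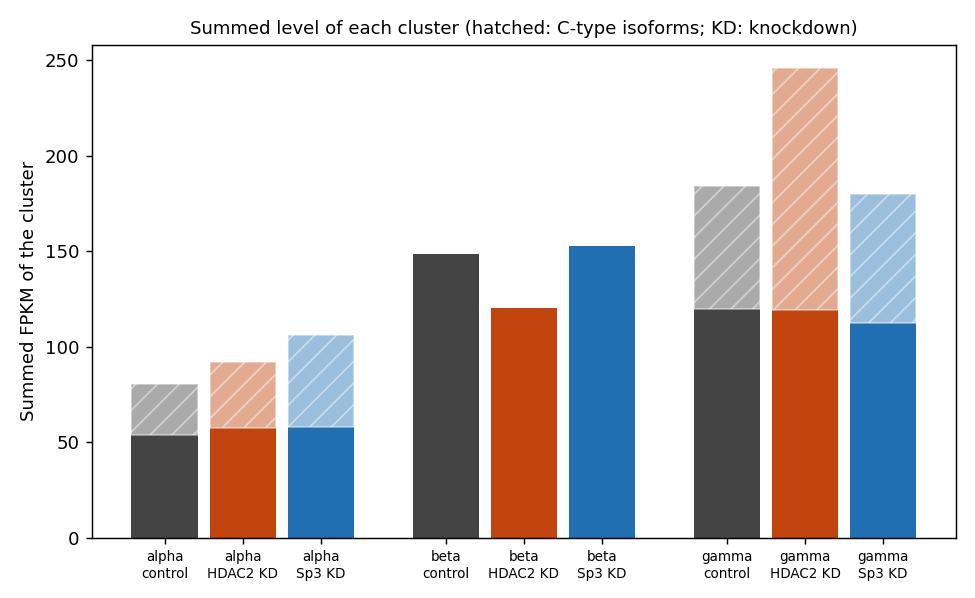
Summed FPKM of each cluster (vertical axis from 0) in control, HDAC2 knockdown and Sp3 knockdown, with the C-type isoforms hatched on top of the other isoforms. The unhatched gamma sums are 120 and 119 FPKM in control and HDAC2 knockdown, whereas the hatched parts are 64.3 and 127 FPKM. Sums are as deposited and not relative to the median gene.

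In HDAC2 knockdown the beta genes were lower almost throughout, against a background in which most genes were higher. Of the 22 beta genes 19 had a log2 fold change below 0 in the authors' deposited table, with a median of -0.32, whereas the median of all tested genes was 0.31. Relative to the median gene the beta median was -0.63, with 21 of 22 below 0, while 50.4% of all tested genes were below 0. The authors' deposited table called 3 of 59 members at q under 0.05, beside 28.2% of all tested genes. Of the 3, 2 were lower, beside 3.60% of tested genes, and 1 was higher, beside 24.6%.

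Pcdhb6 had the lowest log2 fold change of the beta genes. It measured 7.52 FPKM in control, 4.13 in HDAC2 knockdown and 8.21 in Sp3 knockdown, and in the authors' deposited table it was lower in HDAC2 knockdown with q = 0.00662. Its centred value was -1.18 ± 0.27. Pcdhb11 stood at 8.74 FPKM in control and at 5.75 after HDAC2 knockdown, with q = 0.0492 in the authors' deposited table and a centred value of -0.92 ± 0.25. Both were thus lower on either scale.

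Relative to the median gene 10 members were lower and 0 higher at an adjusted p under 0.05, beside 7.59% lower and 10.2% higher among all genes tested this way. At an unadjusted p under 0.05, 20 were lower and 1, Pcdhgc3, was higher, but the share of all genes at that threshold was not computed. Of the 10, 8 were beta genes (Pcdhb4, Pcdhb6, Pcdhb7, Pcdhb9, Pcdhb11, Pcdhb12, Pcdhb14 and Pcdhb18) and 2 were gamma isoforms (Pcdhga10 and Pcdhga12). Upper-quartile scaling gave these 10 and Pcdhgb8, 11 in all, beside 7.80% of all genes lower on that scale. Pcdhb7, the most abundant beta gene, measured 17.9 and 13.9 FPKM in control and knockdown, a centred value of -0.68 ± 0.24 with an adjusted p of 0.0274. Pcdhb18 measured 6.12 and 4.12 FPKM, a centred value of -0.89 ± 0.25 with an adjusted p of 0.00448. Pcdhb19 was the exception among beta genes, with 6.24 FPKM in control, 7.87 in HDAC2 knockdown and a centred value of 0.02 ± 0.24.

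Most gamma isoforms did not pass in HDAC2 knockdown on either scale. Pcdhgc3 was the sole member called higher, from 32.4 to 82.9 FPKM with a log2 fold change of 1.35 and q = 0.0157 in the authors' deposited table. Its standard error, 0.47, was the widest of the 59 members. Relative to the median gene it was 1.04 ± 0.47 with an adjusted p of 0.112 and a 95% interval from 0.12 to 1.96, so the call was lost on that scale. Pcdhgc4 was 0.35 ± 0.31 and Pcdhgc5 was -0.25 ± 0.26 relative to the median gene, and neither passed the test. The 7 B-type isoforms had a centred median of -0.48 and the 12 A-type isoforms one of -0.32. Pcdhga12 measured 6.24 and 4.37 FPKM in control and knockdown, a centred value of -0.83 ± 0.26 with an adjusted p of 0.0122. Astrocyte and oligodendrocyte markers were higher in the same group, as given above, and their part in the Pcdhgc3 value was not tested.

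No alpha member was called in HDAC2 knockdown by Cuffdiff or by the centred test, beside 28.2% and 17.8% of all tested genes. At an unadjusted p under 0.05 the count was 0 of 15 on either scale, with no share of all genes computed. The alpha members had a deposited median log2 fold change of 0.14 and a centred median of -0.17, so the sign depended on the scale. Pcdhac2 had a centred value of 0.06 with a 95% interval from -0.52 to 0.64, which leaves room for changes in either direction.

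In Sp3 knockdown members moved in both directions, and the balance depended on the scale. The authors' deposited table called 15 of 59 members at q under 0.05, beside 39.3% of all tested genes. Of the 15, 8 were higher, beside 13.2%, and 7 were lower, beside 26.1%. Relative to the median gene 16 members passed, beside 37.8% of all genes, with 14 higher and 2 lower, beside 20.2% and 17.6%. Upper-quartile scaling passed 13, beside 38.0% of all genes, with 11 higher and 2 lower, beside 18.9% and 19.1%. The 8 members that the authors' deposited table called higher passed on all 3 scales. Of the 7 called lower, Pcdhb9 and Pcdhgb4 were called lower on all 3 scales.

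The alpha members that passed as higher in Sp3 knockdown on either scale were the C-type isoforms Pcdhac2 and Pcdhac1, and Pcdha2, Pcdha3 and Pcdha4. Those numbered isoforms lie early in the cluster, but Pcdha1, Pcdha5 and Pcdha6, also early, did not pass. Pcdhac2 rose from 25.6 to 46.5 FPKM with q = 7.38e-12 in the authors' deposited table, and its centred value was 0.99 ± 0.12. Pcdha2 measured 3.32 FPKM in control, 4.42 in HDAC2 knockdown and 4.79 in Sp3 knockdown, with q = 0.0206 for Sp3 in the authors' deposited table and a centred value of 0.66 ± 0.19. Pcdha3, Pcdha4 and Pcdhac1 passed in the centred test but not in the authors' test, with centred values of 0.42 ± 0.15, 0.81 ± 0.31 and 0.78 ± 0.33. At the other end of the numbered isoforms Pcdha12 measured 4.35 and 3.70 FPKM in control and knockdown, a centred value of -0.10 ± 0.19. The alpha median was 0.17 as deposited and 0.30 centred, with 12 of 15 centred values above 0.

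Of the 22 beta genes, 4 were called higher and 2 lower in Sp3 knockdown by the authors' deposited table. The shares over all tested genes were 13.2% higher and 26.1% lower. Pcdhb2 measured 3.92 FPKM in control, 4.53 in HDAC2 knockdown and 7.47 in Sp3 knockdown, with q = 4.77e-07 for Sp3 in the authors' deposited table and a centred value of 1.06 ± 0.17, the highest of all members. Its direct neighbours Pcdhb3, Pcdhb4 and Pcdhb5 were also called higher, with centred values of 0.53 ± 0.14, 0.54 ± 0.14 and 0.53 ± 0.12. Pcdhb8 and Pcdhb16 passed in the centred test but not in that of the authors, with 0.47 ± 0.15 and 0.26 ± 0.11. Pcdhb9 was the beta gene called lower on every scale, from 9.10 to 5.87 FPKM with q = 6.09e-05 in the authors' deposited table and a centred value of -0.50 ± 0.14. Pcdhb11 went from 8.74 to 6.68 FPKM with q = 0.0117 in the authors' deposited table, but its centred value was -0.25 ± 0.13 with an adjusted p of 0.108. Pcdhb1, at the start of the cluster, measured 2.33 and 1.72 FPKM and did not pass. Pcdhb22, at its end, measured 6.39 FPKM in control, 5.02 in HDAC2 knockdown and 7.33 in Sp3 knockdown, and passed in neither comparison with control.

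Of the 22 gamma isoforms, the authors' deposited table for Sp3 called 2 higher (Pcdhga1 and Pcdhga3) and 5 lower. Over all tested genes the shares were 13.2% and 26.1%. Pcdhga1, the first of the cluster, stood at 7.52 FPKM in control and at 10.7 in each knockdown. It was called higher in Sp3 knockdown with q = 0.000297 in the authors' deposited table and a centred value of 0.64 ± 0.12. Its value in HDAC2 knockdown, equal to 3 digits, had a centred value of 0.19 ± 0.26 and did not pass. Pcdhga3 measured 9.33 FPKM in control, 11.9 in HDAC2 knockdown and 11.8 in Sp3 knockdown, with a centred value of 0.47 ± 0.12 in Sp3 knockdown, where it was called. Pcdhga2 passed in the centred test alone, with 0.32 ± 0.13.

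Pcdhgb4 went from 5.68 FPKM in control to 3.91 in Sp3 knockdown, with q = 0.00333 in the authors' deposited table and a centred value of -0.41 ± 0.16. The others called lower in the authors' deposited table were Pcdhga8 (7.69 to 6.07 FPKM), Pcdhgb6 (5.77 to 4.21 FPKM), Pcdhgb8 (8.77 to 6.95 FPKM) and Pcdhga12 (6.24 to 4.69 FPKM). Their centred values ranged from -0.20 to -0.32, and none passed on that scale. The B-type isoforms had a centred median of -0.20, with 6 of 7 below 0, and the A-type isoforms one of 0.07, with 4 of 12 below 0. The C-type isoforms Pcdhgc3, Pcdhgc4 and Pcdhgc5 had centred values of 0.24 ± 0.15, 0.24 ± 0.12 and 0.02 ± 0.12, and none passed on any of the 3 scales.

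**Figure D3:**
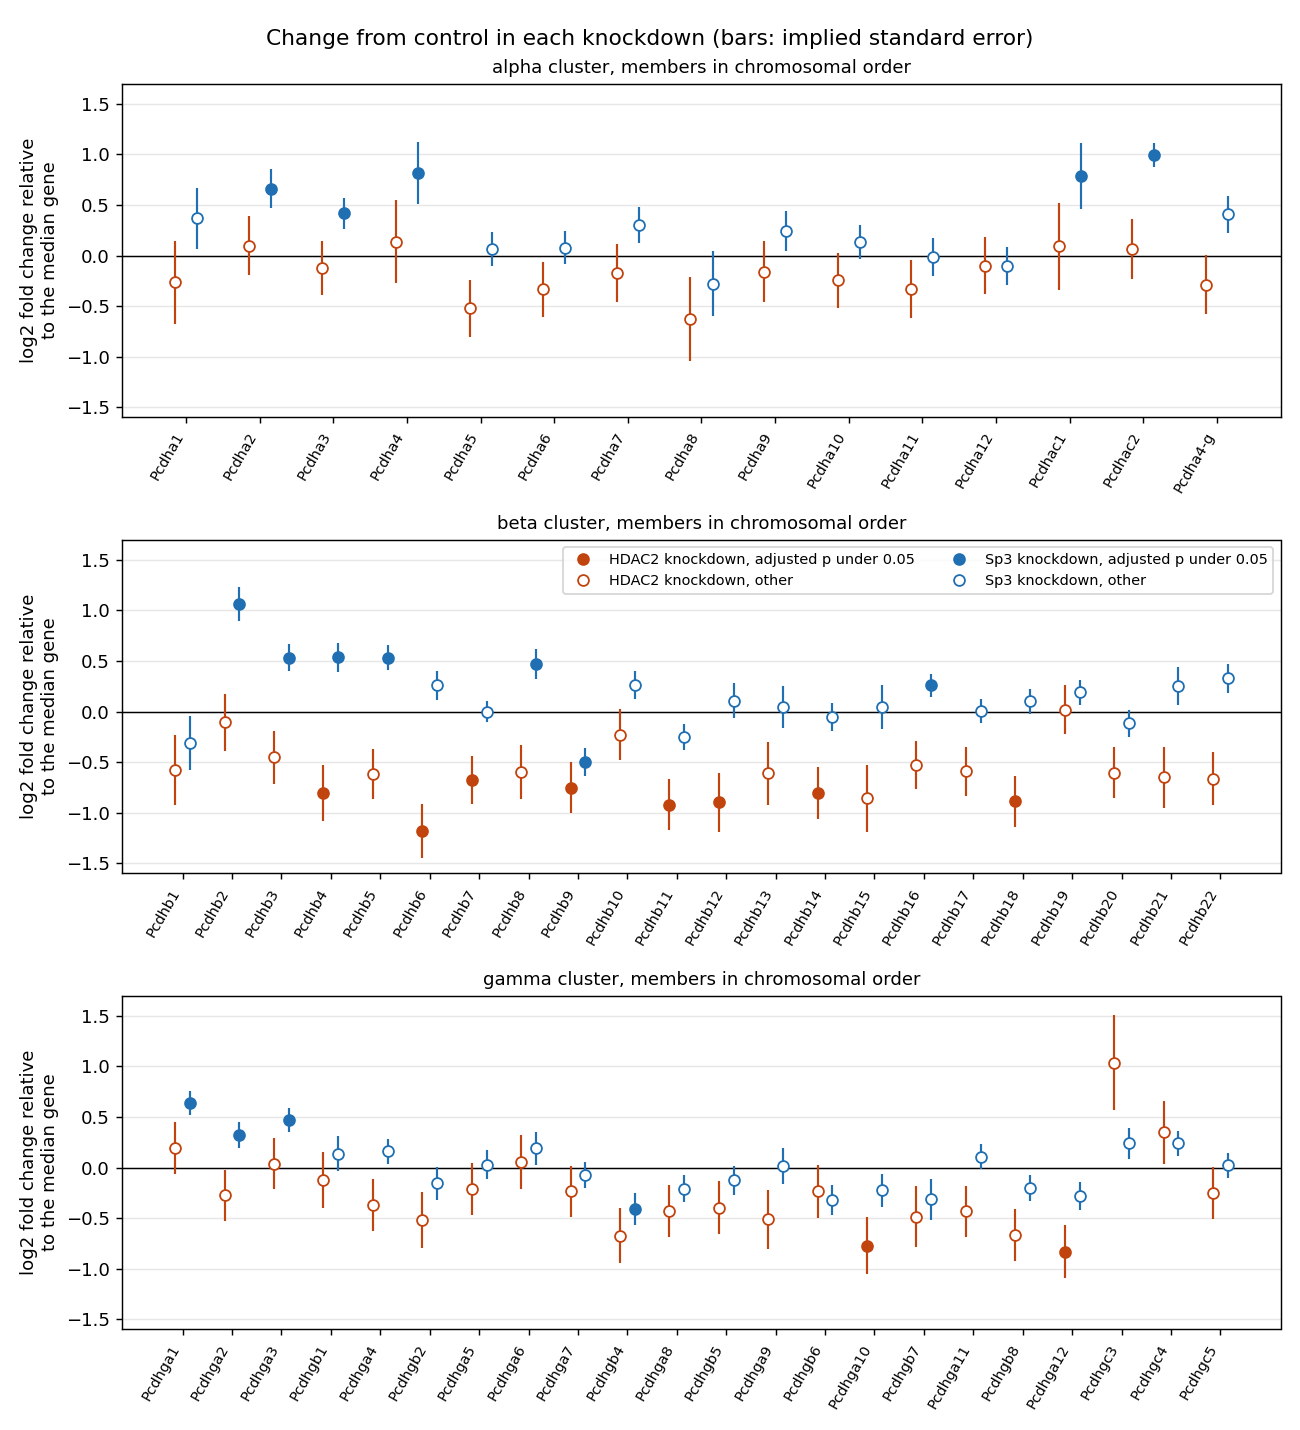
Log2 fold change from control relative to the median gene (vertical axis) for each member in chromosomal order, in HDAC2 knockdown and Sp3 knockdown, with bars for the implied standard error and filled points for an adjusted p under 0.05. In the beta panel 21 of 22 HDAC2 values lie below 0, and filled Sp3 points above 0 cluster at Pcdhb2 to Pcdhb5.

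The comparisons with control share the control values, so the knockdowns were also compared with each other, where the control level cancels. The standard error of this difference still counts the control error in both terms, which makes it too wide by an unknown amount. Of the 59 members 11 differed at an adjusted p under 0.05, beside 14.7% of all genes. All 11 were lower in HDAC2 than in Sp3 knockdown, beside 6.87% of all genes in that direction, and none was higher, beside 7.86%. At an unadjusted p under 0.05 the counts were 19 and 0, with no share of all genes computed at that threshold. As deposited, without centring, 4 members differed, beside 28.7% of all genes. Pcdhb4, Pcdhb5 and Pcdhb6 were then lower in HDAC2 knockdown, beside 2.16% of all genes, and Pcdhgc3 was higher, beside 26.6%.

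The difference lay mostly in the beta cluster. There 10 genes passed (Pcdhb2, Pcdhb3, Pcdhb4, Pcdhb5, Pcdhb6, Pcdhb8, Pcdhb12, Pcdhb16, Pcdhb18 and Pcdhb22), and 22 of 22 values were below 0 with a median of -0.84 on the centred log2 scale. As deposited 19 of 22 were below 0 and the beta median was -0.39, whereas the median of all genes was 0.44. Over all genes the centred median was -0.01, with 50.9% lower in HDAC2 knockdown. Pcdhb6 had the largest difference, -1.44 ± 0.30 with an adjusted p of 6.22e-05, from 4.13 FPKM in HDAC2 and 8.21 in Sp3 knockdown. Pcdhb4 followed with -1.34 ± 0.31, from 3.59 and 6.67 FPKM.

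Pcdhac2 was the alpha member that differed, with -0.93 ± 0.32 and an adjusted p of 0.0275. The alpha median difference was -0.54, with 14 of 15 below 0 on the centred scale and 9 of 15 as deposited. The gamma median was -0.27, with 19 of 22 below 0 on the centred scale and 7 of 22 as deposited, so its direction depended on the scale. Pcdhgc3 had the highest centred difference, 0.80 ± 0.49, which did not pass.

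**Figure D4:**
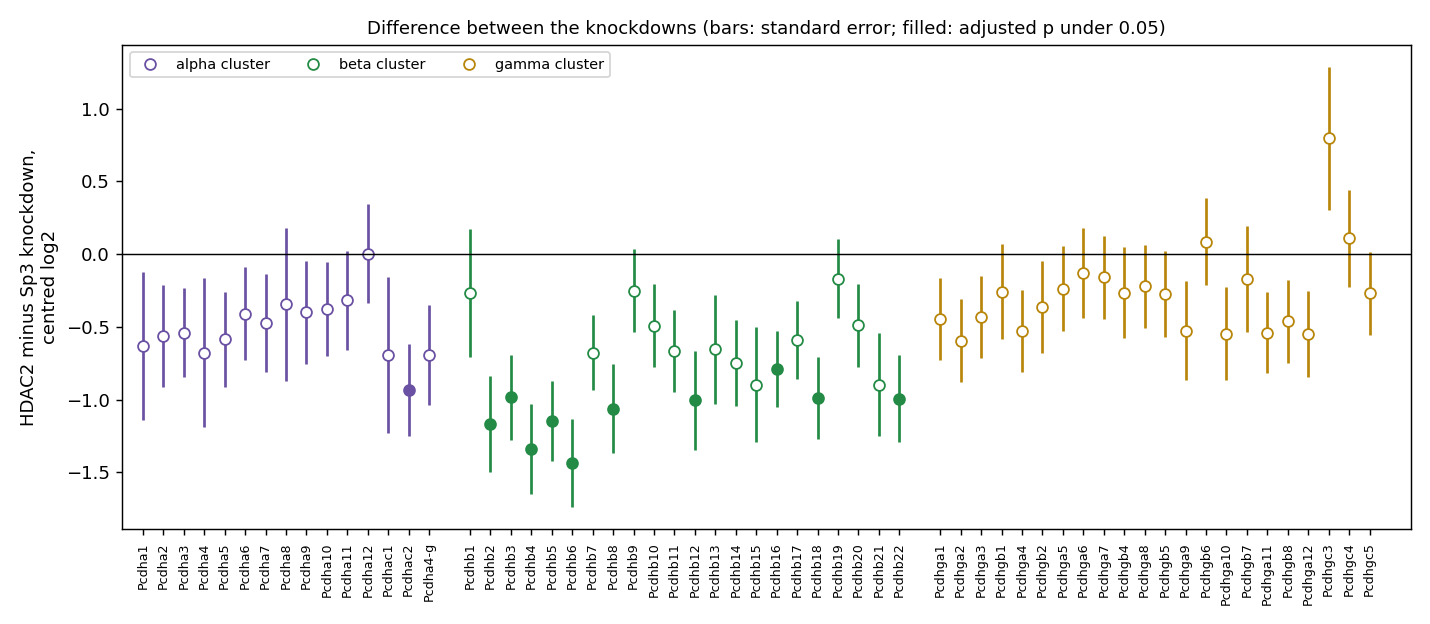
Difference of the centred log2 fold changes, HDAC2 minus Sp3 knockdown (vertical axis), for each member by cluster in chromosomal order, with bars for the standard error and filled points for an adjusted p under 0.05. All 22 beta values lie below 0 and 10 of them are filled, and Pcdhgc3 stands apart at 0.80.

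Position within a cluster went with the fold change in the alpha and gamma clusters, as a description over isoforms that share libraries, control values and constant exons. Without the C-type isoforms, Spearman's rho between gene order and the Sp3 fold change was -0.73 over 12 alpha and -0.72 over 19 gamma isoforms, with higher values towards the start of each cluster. In HDAC2 knockdown it was -0.71 over the 19 gamma isoforms and -0.17 over the 12 alpha isoforms. For the beta cluster the values were -0.076 in HDAC2 and -0.25 in Sp3 knockdown over 22 genes. With the C-type isoforms kept, the gamma values were -0.23 for HDAC2 and -0.38 for Sp3 over 22 isoforms, and the alpha Sp3 value was -0.13 over 14, so the order held for the other isoforms alone.

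The difference between the knockdowns, which does not hold the control value, had a rho with gene order of 0.90 over the 12 alpha isoforms, 0.30 over the 22 beta genes and -0.065 over the 19 gamma isoforms. At the ends, the alpha values were -0.63 for Pcdha1 and 0.00 for Pcdha12, and the lowest of the 12 was -0.68 for Pcdha4. Along the alpha cluster an order thus also appeared without the control values. Along the gamma cluster rho was alike in both knockdowns (-0.71 and -0.72), and an order common to both cancels in this difference. The gamma value of -0.065 therefore cannot show whether that order rests on the control values.

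Stretches of the clusters show the same order in levels. The first 9 gamma isoforms, Pcdhga1 to Pcdhga7, had a median of 6.79 FPKM in control, 6.99 in HDAC2 knockdown and 7.65 in Sp3 knockdown. The last 9 before the C-type isoforms, Pcdhga8 to Pcdhga12, had medians of 6.24, 6.10 and 4.69 FPKM. In Sp3 knockdown 6 of the first 9 and 0 of the last 9 had a deposited fold change above 0, and the authors' deposited table called 2 of the first higher and 4 of the last lower, beside 13.2% and 26.1% of all tested genes. In HDAC2 knockdown 7 of the first 9 and 1 of the last 9 were above 0 as deposited, 3 and 0 when centred. Among the first 11 beta genes, Pcdhb1 to Pcdhb11, the authors' deposited table for Sp3 called 4 higher and 2 lower, beside the same shares. Of the last 11 it called 0, which was also the count at an unadjusted p under 0.05 on the deposited scale. When centred, 2 of the last 11 were higher and 0 lower at an unadjusted p under 0.05. Of these, Pcdhb16 passed the centred test with an adjusted p of 0.0494, so the contrast depended on the scale.

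Genes that set promoter choice at the locus were measured in the same tables. Of 15 genes for CTCF, cohesin and related factors, Sp3 knockdown had 0 higher and 5 lower by the authors' deposited table, beside 13.2% and 26.1% of all tested genes. When centred, 4 of these were also lower, beside 17.6%. At an unadjusted p under 0.05 the deposited counts were 0 and 6. Rad21, a cohesin subunit, measured 38.8 FPKM in control, 54.6 in HDAC2 knockdown and 24.2 in Sp3 knockdown, with a centred value of -0.55 ± 0.11 for Sp3. Smc3, another cohesin subunit, measured 18.2, 23.2 and 12.1 FPKM, with -0.46 ± 0.11 for Sp3, and Stag2 measured 24.5, 30.9 and 18.3 FPKM, with -0.28 ± 0.10. Cdca5, which stabilises cohesin, was lower (-0.81 ± 0.34), and Zfp143, a factor at chromatin loops, passed in the authors' test alone (-0.34 ± 0.18). Ctcf itself measured 11.7, 15.4 and 10.1 FPKM and passed in neither comparison. Nipbl, the cohesin loader, measured 13.5, 16.4 and 11.7 FPKM and Wapal, its release factor, 16.7, 21.9 and 14.9 FPKM, and neither passed. In HDAC2 knockdown Stag1 was called higher by the authors' deposited table, from 10.2 to 15.8 FPKM, and relative to the median gene it did not pass. On that scale Cdca5 was lower in HDAC2 knockdown as well with an adjusted p of 0.0459 and with 2.26 FPKM in control, 1.40 in HDAC2 and 1.17 in Sp3 knockdown.

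Factors of silencing and DNA methylation moved in both directions. Of 19 tested for Sp3, the authors' deposited table had 4 higher and 9 lower, beside 13.2% and 26.1% of all tested genes, and 7 were higher and 9 lower relative to the median gene, beside 20.2% and 17.6%. Smchd1, which represses clustered protocadherins, measured 14.0 FPKM in control, 19.6 in HDAC2 knockdown and 7.87 in Sp3 knockdown, with a centred value of -0.70 ± 0.11 for Sp3. Tet1, an enzyme that oxidises methylated cytosine, measured 3.61, 3.78 and 7.93 FPKM, with 1.27 ± 0.10 for Sp3. Setdb1, an H3K9 methyltransferase that acts on this locus in neurons, measured 16.8, 23.9 and 20.0 FPKM, with 0.19 ± 0.09 for HDAC2 (not passing) and 0.38 ± 0.07 for Sp3. Ehmt1, another H3K9 methyltransferase, measured 12.3, 12.7 and 7.40 FPKM and was lower in both comparisons relative to the median gene (-0.27 ± 0.09 and -0.61 ± 0.09). Dnmt3b, which methylates protocadherin promoters early in development, was listed at 0.607, 0.852 and 0.248 FPKM and was too low for the authors' test. Of 18 tested for HDAC2, the authors' deposited table had 2 higher and 0 lower (5 and 1 at an unadjusted p under 0.05), beside 24.6% and 3.60%. When centred, 0 were higher and 2 lower (1 and 2 unadjusted), beside 10.2% and 7.59%. Whether these levels have a part in the members' values was not tested.

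Partners of the proteins were mixed. Of 28 genes for binding partners and processing enzymes, 27 were tested for HDAC2, with 8 higher and 0 lower by the authors' deposited table (9 and 0 at an unadjusted p under 0.05), beside 24.6% and 3.60% of all tested genes. The centred test had 3 higher and 3 lower, beside 10.2% and 7.59%. For Sp3 the authors' deposited table had 6 higher and 12 lower, beside 13.2% and 26.1%, and 8 and 6 relative to the median gene, beside 20.2% and 17.6%. Psen2, a gamma-secretase subunit, was higher in both, with 9.42 FPKM in control, 20.7 in HDAC2 and 15.7 in Sp3 knockdown. Nlgn1, a postsynaptic adhesion protein, measured 45.4, 60.3 and 70.2 FPKM, and Rhoa, a small GTPase, 47.6, 61.0 and 30.3 FPKM.

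The non-clustered protocadherins are related genes outside the clusters, and their difference from the members was not tested. Of 11 tested, the authors' deposited table for Sp3 had 8 higher and 0 lower (9 and 0 at an unadjusted p under 0.05), beside 13.2% and 26.1% of all tested genes, with a centred median of 0.63. The authors' deposited table for HDAC2 had 3 higher and 1 lower, beside 24.6% and 3.60%, with a centred median of 0.18. Pcdh10 measured 43.1 FPKM in control, 133 in HDAC2 knockdown and 82.4 in Sp3 knockdown. Pcdh8 measured 128, 102 and 139 FPKM, lower in HDAC2 and higher in Sp3 knockdown on both scales.

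The genes around the clusters were also read, 32 within 500 kb. Among them Taf7, which lies between the beta and gamma clusters, measured 8.95 FPKM in control, 8.43 in HDAC2 knockdown and 9.54 in Sp3 knockdown and passed in neither. Of the 32, 26 were tested for HDAC2, and the authors' deposited table had 3 higher (Hbegf, Slc35a4 and Wdr55), beside 24.6% of all tested genes, and 2 lower (Ik and Rell2), beside 3.60%. Relative to the median gene 2 of these neighbours were higher and 4 lower, beside 10.2% and 7.59% of all genes. The centred median of the neighbours was -0.22, beside -0.17 for the alpha, -0.63 for the beta and -0.32 for the gamma members. Of 27 tested for Sp3, the authors' deposited table had 1 higher and 7 lower, beside 13.2% and 26.1%, and 3 and 3 relative to the median gene, beside 20.2% and 17.6%, with a centred median of -0.10. Gnpda1, which measured 6.18 FPKM in control, 4.98 in HDAC2 and 2.44 in Sp3 knockdown, had the lowest p of these in Sp3 knockdown. Hdac3, a deacetylase gene beside the gamma cluster, measured 60.5, 58.9 and 44.9 FPKM, with a centred value of -0.30 ± 0.11 for Sp3.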

How the data were processed

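Per the submitters' processing notes, reads were handled with TopHat, Bowtie and Cuffdiff on mm9. The sources used here name no version, annotation or strand setting. Per knockdown the authors deposited a table with, per the file headers, FPKM per group, log2 fold change, a test statistic (a score), a p-value and a q-value. The score has the opposite sign to the fold, and a normal p from it differed from the p-value in the authors' files by at most 2.79e-06. The standard error is the size of log2 fold change divided by that statistic. No model could be refitted.

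Members and lists were chosen with earlier results of these data known. A call is status OK and q under 0.05. Counts at an unadjusted p have no share over all genes beside them, because none was computed at that threshold. Centred values subtract the median log2 fold change of tested genes of at least 1 FPKM. Their normal p, like that of the difference between knockdowns, was Benjamini-Hochberg adjusted over 13481, 13539 and 13277 genes for HDAC2, Sp3 and the difference. Gene sets, sums and gene order are described without a test. Members named in full were those called, the C-type isoforms, the 5 highest per cluster, and the first and last of each, and other genes came from lists by smallest p. Alternatives varied the q threshold, scaling, filters and pseudocounts (0.1 and 1). Leaving out the C-type isoforms or Pcdha4-g was added after seeing the data. Scripts, tested on simulated data, used Python 3.11.15, pandas 2.3.3, numpy 2.4.6 and scipy 1.17.1. Control FPKM was identical in both tables for 100% of genes. FPKM holds no read counts, so depth is unknown and no counting interval is given.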

Additional observations from a re-analysis of the deposited data

How the results depend on the processing

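The number of members called in HDAC2 knockdown was 3 as deposited, 1 at q under 0.01, 5 at q under 0.1, 10 centred on the median gene and 11 with upper-quartile scaling. In Sp3 knockdown it was 15, and 6 at q under 0.01. The count differing between the knockdowns was 11 centred and 4 as deposited. Centring moved the HDAC2 cluster medians to -0.17 for alpha, -0.63 for beta and -0.32 for gamma, and the log2 ratios of summed FPKM to -0.12, -0.62 and 0.10. The gamma ratio in HDAC2 knockdown, 0.42, was 0.10 without Pcdhgc3 and -0.0071 without the C-type isoforms. The alpha ratio in Sp3 knockdown, 0.40, was 0.12 without Pcdhac2 and 0.11 without the C-type isoforms. Leaving out Pcdha4-g moved no alpha value by as much as the median implied standard error of the alpha members. No call changed sign. No paired analysis was possible because the deposited tables hold 1 value per group, and for the same reason no library could be left out. Depth is unknown, so no detection limit can be set for low members such as Pcdhac1.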
